A study of Arabidopsis thaliana with 24 samples.

Results

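The ABA response of the atmyc2 cop1-6 double mutant was read from 4 of the 24 Affymetrix ATH1 arrays of the series, chosen by their labels: 2 arrays of double mutant seedlings grown in blue light with abscisic acid (ABA) and 2 of double mutant seedlings grown in blue light without it. Non-control probe sets with a mean above a dim level in at least 1 group, 16196 of 22746, were compared between them as log2 signal. All seedlings were Columbia ecotype, 10 days old, grown at 22 °C on MS plates under constant blue light of 35 µmol per s per m2, and in the treated group the plates held ABA at 0.5 (the unit is written um in the labels) from sowing on, so the response is that of continuous exposure through germination. Both groups carry both mutations: a mutation of AtMYC2, whose allele the labels do not name, and cop1-6, a viable partial loss-of-function allele of COP1. The series also holds wild type (WT), atmyc2 and cop1-6 seedlings in the same 2 blue light conditions, and all 4 genotypes in darkness, with 2 biological replicates in each of 12 groups. The comparison asks what ABA changes when AtMYC2 and COP1 are impaired together, and whether that differs from the response of WT and of each single mutant.

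ABA is the hormone of seed maturation, dormancy and drought. Bound to its receptors it inhibits protein phosphatases, which frees protein kinases to activate transcription factors that switch on genes of desiccation tolerance, and in germinating seeds it holds back the change to a green, growing seedling. AtMYC2 belongs to the bHLH family of transcription factors and acts in ABA, jasmonate and light signalling. COP1, an E3 ligase, marks factors that promote light responses for degradation. No probe set that the annotation used here assigns to a single gene is assigned to MYC2 or COP1, or matched the lists of ABA receptors, clade A phosphatases, SnRK2 kinases and ABA transcription factors. These genes are therefore not analysed here, and the genotypes were not checked from the mutated genes.

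Before the results, some properties of the arrays bear on them. Median signals of the 4 double mutant arrays lay between 35.5 and 38.4. The replicates correlated at r = 0.944 in blue light, where each was closer to a cop1-6 blue light array (0.948 and 0.965), and at r = 0.971 with ABA. The 24 poly-A spike-in probe sets averaged 10.8 and 5.62 on the blue light arrays and 97.7 and 108.8 on the ABA arrays, and the 25S ribosomal RNA control read 87.8 and 60.8 against 1601 and 1434. The spike-in and ribosomal controls were also higher with ABA in the other 3 genotypes, so any difference in preparation between blue light and ABA samples cannot be told apart from ABA itself. The cop1-6 ABA arrays were unlike each other (r = 0.945): replicate 1 was closest to a double mutant ABA array (0.970) and replicate 2 to a WT ABA array (0.956). Whether both match their label is in doubt, so each cop1-6 ABA value and count below is that of the libraries so labelled. As whole seedlings were extracted, fewer cells of a type and less RNA per cell cannot be told apart. The labels do not say whether replicates came from separate cultures, and the p-values measure only the spread between these samples.

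With ABA, 1608 of 16196 tested probe sets rose in the double mutant (9.93%) and 2168 fell (13.4%), or 23.3% either way, at a limma adjusted p under 0.05, and the median over all tested was a log2 change of -0.03. Of these, 685 rose and 758 fell by more than 2-fold (a log2 change past 1) with a pseudocount of 1 and also with 19.1. The latter, below which 40% of all deposited values lay, is named the dim level here. On 62.4% of all tested probe sets the 2 ABA arrays did not overlap the 2 blue light arrays, and among those called, 2 overlapped. The count depended most on the ABA arrays: 1999 probe sets were called without ABA replicate 2 and 2317 without ABA replicate 1. WT had 3125 rises and 2528 falls (19.3% and 15.6%), atmyc2 had 1741 and 1791 (10.7% and 11.1%), and cop1-6 had 950 and 1228 (5.87% and 7.58%). Of the double mutant's rises, 889 rose in WT too (55.3% of the double mutant's and 28.4% of WT's rises), and 999 falls were shared (46.1% and 39.5%). In the opposite direction, 35 of its rises fell in WT and 50 of its falls rose there.

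Genes of late embryogenesis abundant (LEA) proteins, hydrophilic proteins that protect cells as seeds dry, were several of the 12 genes named for their rise. LEA18 (AT2G35300) read 2.4 and 0.6 in blue light and 1594 and 1813 with ABA, a log2 change of 9.51 ± 0.75 (± SE here and below, n = 2 arrays per group; limma adjusted p = 2.46e-07). The blue light arrays lay under the dim level and the ABA arrays far above it, without overlap, and since a fold from so low a level depends on the pseudocount, the change was 6.38 at a pseudocount of 19.1. LEA4-5 (AT5G06760) went from 2.6 and 4.1 to 1125 and 1432, by 8.21 ± 1.19 (adjusted p = 1.55e-04, 5.84 at the higher pseudocount). AtLEA4-1 (AT1G32560) went from 3.4 and 6.9 to 1206 and 1185, by 7.66 ± 0.72 (adjusted p = 2.57e-06, 5.65). In each of these genes both blue light arrays lay under the dim level and both ABA arrays far above it, and the groups did not overlap. COR15A (AT2G42540), a cold-regulated protein of the chloroplast stroma, went from 52.6 and 19.3 to 1534 and 1782, by 5.65 ± 0.66 (adjusted p = 1.56e-05). LEA (AT2G21490), a dehydrin outside the list counted next, went from 10.3 and 6.3 to 643.9 and 715.7, by 6.23 ± 1.01 (adjusted p = 3.24e-04, 4.67 at the higher pseudocount). M17 (AT2G41260), a LEA gene of the seed, read 6.3 and 88.0 and then 517.1 and 614.1, by 4.47 ± 1.05 (adjusted p = 0.00652). Its blue light arrays were far apart, and without blue light replicate 1 its change was 2.67 with an adjusted p of 0.0802.

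Of 11 tested LEA and cold-regulated genes, 9 rose and none fell, beside rises in 9.93% of all probe sets. The 11 had a median log2 change of 3.98 (1.84 at a pseudocount of 19.1) beside -0.03 over all probe sets. The other 4 rises were those of M10, COR15B, the dehydrin LTI30 and AT2G44060, the last by 0.76 ± 0.24, and AT2G46140 was not called. COR47, another dehydrin, read 595.5 and 900.7 in blue light and 771.0 and 870.5 with ABA and was not called, with overlapping groups. The count lay between 7 and 10 over all alternatives, with 7 without ABA replicate 2. In WT 8 of the 11 rose, beside 19.3% of all probe sets, with a median of 2.89, and the difference between the genotypes was called for 0 of 11. One member was called above WT in 3 of the alternatives, and the median difference from WT was 0.95 (0.75 over the alternatives at the lowest). ATHSP22.0 (AT4G10250), a small heat shock protein of the endoplasmic reticulum, went from 1.3 and 13.6 to 68.8 and 82.1, by 3.72 ± 0.72 (adjusted p = 0.00104, 1.87 at a pseudocount of 19.1).

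**Figure D1:**
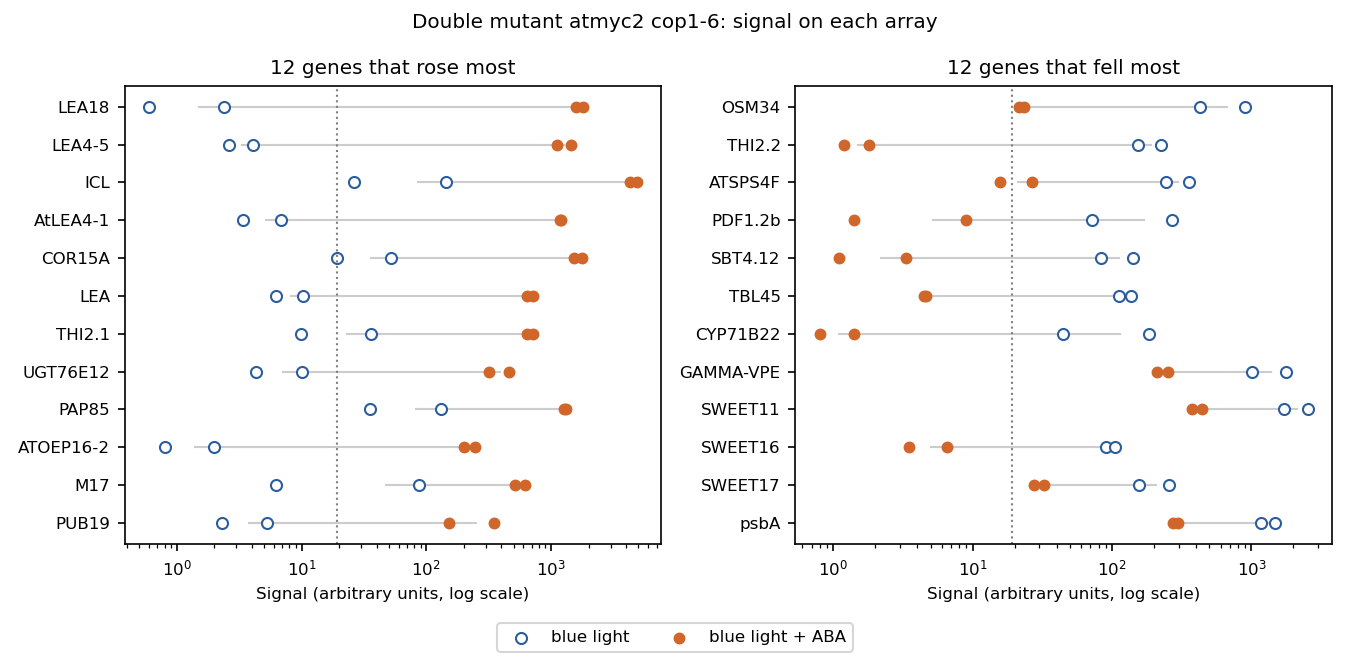
Signal on each double mutant array (x axis, arbitrary units, log scale) for the 12 named genes with the largest rises (left) and the 12 with the largest falls (right); open circles are blue light arrays, filled circles blue light with ABA, grey lines join the means and the dotted line is the dim level of 19.1. LEA18 moves from 2.4 and 0.6 to 1594 and 1813, and SWEET11 from 2529 and 1726 to 374.4 and 444.2.

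Genes of stored reserves rose as well. PAP85 (AT3G22640), a vicilin-like seed storage protein, read 35.3 and 131.5 in blue light and 1266 and 1312 with ABA, a log2 change of 4.22 ± 0.72 (adjusted p = 6.34e-04). OLEO3 (AT5G51210), an oleosin that coats oil bodies, went from 21.6 and 11.1 to 145.9 and 126.8, by 3.05 ± 0.73 (adjusted p = 0.00635, and 0.0556 without blue light replicate 2), or by 2.15 at a pseudocount of 19.1. These were the only 2 listed seed storage and oil body genes, and both sets of ABA arrays lay above all blue light arrays. ICL (AT3G21720), isocitrate lyase of the glyoxylate cycle that turns seed oil into sugar, was among the brightest: 144.1 and 26.5 in blue light and 4876 and 4278 with ABA, by 6.18 ± 0.62 (adjusted p = 6.90e-06). ICL on the WT arrays went from 28.2 and 11.4 to 4522 and 5484. AMY1 (AT4G25000), an alpha-amylase that breaks down starch, moved the other way in the double mutant, from 242.5 and 297.1 to 84.4 and 140.1, by -1.30 ± 0.37 (adjusted p = 0.0166). That fall was lost without blue light replicate 2 (adjusted p = 0.0939) or ABA replicate 1 (0.18). The remaining 2 reserve mobilisation genes, the lipase SDP1 and AIM1 of fatty acid beta-oxidation, changed by 0.56 ± 0.23 and 0.22 ± 0.15 and were not called. All 4 genes of this list rose in WT, beside rises in 19.3% of all probe sets there.

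Other named rises were those of a thionin, a glycosyltransferase and a ubiquitin ligase. THI2.1 (AT1G72260), a thionin with antimicrobial activity that jasmonate induces, went from 36.0 and 9.9 to 636.4 and 720.3, by 5.08 ± 0.99 (adjusted p = 0.00166). UGT76E12 (AT3G46660), a glycosyltransferase, went from 4.3 and 10.0 to 318.0 and 459.1, by 5.65 ± 0.66 (adjusted p = 1.01e-05, 3.94 at a pseudocount of 19.1). PUB19 (AT1G60190), a U-box E3 ubiquitin ligase that dampens ABA responses, went from 5.3 and 2.3 to 151.3 and 349.4, by 5.66 ± 0.57 (adjusted p = 2.76e-06, 3.45). The groups did not overlap in any of these. PUB19 rose more than in WT, where the arrays went from 13.5 and 9.0 to 79.6 and 76.8, with a difference of 2.95 ± 0.81 (adjusted p = 0.0313). In cop1-6 PUB19 went from 1.3 and 6.2 to 192.0 and 76.1, by 4.91 ± 0.57 (limma adjusted p = 2.42e-05). ATOEP16-2 (AT4G16160), a channel protein of the outer plastid envelope, went from 2.0 and 0.8 to 201.1 and 245.2, by 6.58 ± 0.88 (adjusted p = 3.73e-05, 3.56). Of the 4 tested flavonoid and anthocyanin genes, 3 rose, beside rises in 9.93% of all probe sets. They were DFR (dihydroflavonol reductase), from 83.8 and 23.6 to 229.8 and 225.6, and the anthocyanin-modifying UF3GT and AT5MAT, by 2.32 ± 0.65, 2.26 ± 0.72 and 2.12 ± 0.70. AT5MAT, at 9.2 and 5.6 in blue light and 32.0 and 37.5 with ABA, changed by 1.02 at a pseudocount of 19.1. The chalcone isomerase-like CHIL changed by 0.83 ± 0.57 and was not called. None of the 3 calls held without ABA replicate 1, without ABA replicate 2 or without blue light replicate 2. DFR on the WT arrays stayed under the dim level in blue light (14.8 and 8.2) and close to it with ABA (18.2 and 19.8).

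OSM34 (AT4G11650), an osmotin-like protein, read 427.5 and 899.0 in blue light and 23.5 and 21.5 with ABA, a log2 change of -4.73 ± 1.08 (adjusted p = 0.00549). THI2.2 (AT5G36910), the second thionin on the array, went from 154.7 and 226.1 to 1.8 and 1.2, by -6.24 ± 0.39 (adjusted p = 1.43e-08, -3.33 at a pseudocount of 19.1). So the thionins THI2.1 and THI2.2 moved in opposite directions, each with groups that did not overlap. SBT4.12 (AT5G59090), a subtilisin-like protease, went from 142.5 and 83.3 to 3.3 and 1.1, by -5.19 ± 0.41 (adjusted p = 2.54e-07, -2.60). CYP71B22 (AT3G26200), a cytochrome P450, went from 185.1 and 44.3 to 1.4 and 0.8, by -5.47 ± 0.64 (adjusted p = 1.03e-05, -2.49). TBL45 (AT2G30010), of the trichome birefringence-like family, went from 136.2 and 111.3 to 4.5 and 4.6, by -4.48 ± 0.37 (adjusted p = 2.79e-07, -2.59). The ABA arrays of these genes lay under the dim level, which only the OSM34 arrays stayed above. GAMMA-VPE (AT4G32940), a vacuolar processing enzyme of vegetative tissue, went from 1768 and 1009 to 253.0 and 209.9, by -2.53 ± 0.33 (adjusted p = 4.19e-05).

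Plant defensins are small antifungal peptides, of which PDF1.2 is a marker of the jasmonate and ethylene branch. Of the 4 tested genes listed for this branch, 2 rose and 2 fell, beside 9.93% and 13.4% of all probe sets. Other defensins were not counted in this list. PDF1.2b (AT2G26020) went from 267.7 and 71.4 to 9.0 and 1.4, by -4.83 ± 0.85 (adjusted p = 4.95e-04, -2.75 at a pseudocount of 19.1), on a probe set that may bind more than 1 transcript. PDF1.2 (AT5G44420) went from 224.4 and 35.6 to 14.4 and 11.6, by -2.70 ± 0.68. LCR67 (AT1G75830), also known as PDF1.1, went from 7.9 and 0.4 to 164.9 and 183.0, by 5.63 ± 0.85 (adjusted p = 1.18e-04, 3.07), and PDF1.4 (AT1G19610) from 124.4 and 559.5 to 914.5 and 1224, by 2.00 ± 0.63. PDF1.2 and PDF1.4 had blue light arrays far apart, and without blue light replicate 1 neither was called (adjusted p = 0.151 and 0.348). Both were also lost without ABA replicate 2, and PDF1.4 without ABA replicate 1. All 4 moved the same way in WT, where PDF1.2 fell by 4.06 on the log2 scale. MYC3, a close relative of AtMYC2, went from 106.9 and 111.8 to 59.4 and 72.0, by -0.73 ± 0.24 (adjusted p = 0.0328, between 0.0651 and 0.2 with any 1 of the 4 arrays left out), while MYC4, read at 126.6 and 57.7 and then 64.9 and 57.5, was not called.

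Some SWEET genes and a sucrose phosphate synthase gene fell. The SWEET proteins are sugar transporters, of which SWEET11 exports sucrose towards the phloem and SWEET16 and SWEET17 sit in the vacuole membrane. SWEET11 (AT3G48740) read 2529 and 1726 in blue light and 374.4 and 444.2 with ABA, a log2 change of -2.35 ± 0.26 (adjusted p = 5.94e-06). SWEET16 (AT3G16690) went from 90.8 and 105.7 to 3.5 and 6.6, by -4.08 ± 0.39 (adjusted p = 1.90e-06, -2.28 at a pseudocount of 19.1). SWEET17 (AT4G15920) went from 156.6 and 256.0 to 32.3 and 27.6, by -2.71 ± 0.37 (adjusted p = 5.68e-05). The blue light and ABA arrays were apart in all 3. Of the 8 SWEET genes tested, a family picked out after the values were seen, 4 fell and none rose, beside falls in 13.4% of all probe sets, with a median of -1.76 against -1.51 in WT. SWEET1, SWEET3, SWEET10 and SWEET13 were not called. The fourth was SWEET2, from 52.5 and 128.2 to 17.8 and 20.1. SWEET16 fell further than in WT (difference -2.47 ± 0.55, adjusted p = 0.0123, -0.94 at the higher pseudocount). ATSPS4F (AT4G10120), a sucrose phosphate synthase, went from 356.7 and 242.2 to 15.7 and 26.6, by -3.78 ± 0.48 (adjusted p = 2.69e-05).

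Nuclear genes of photosynthesis fell modestly. Over all probe sets, 9.93% rose and 13.4% fell, and the median was -0.03. Of 8 tested photosystem, antenna and ATP synthase genes, 6 fell and none rose, with a median of -0.61, and without ABA replicate 2 the count was 2. LHCB4.3 (AT2G40100), a minor antenna protein of photosystem II, fell most, from 455.3 and 337.4 to 195.2 and 187.6, by -1.03 ± 0.19 (adjusted p = 7.12e-04). LHCB4.1, its paralogue, read 2571 and 2659 and then 2299 and 2263 and was not called. In the Calvin cycle and photorespiration, 3 of 4 tested genes fell: PRK (phosphoribulokinase) from 1989 and 2291 to 870.9 and 871.5, by -1.29 ± 0.22, SBPASE (sedoheptulose bisphosphatase) by -1.07 ± 0.20 and HPR (hydroxypyruvate reductase) by -1.23 ± 0.20. RCA, rubisco activase, changed by -0.44 ± 0.18 and was not called. The adjusted p-values of PRK, SBPASE and HPR were 3.88e-04, 6.66e-04 and 2.96e-04. Of 8 chlorophyll synthesis genes, only CHLM, a magnesium protoporphyrin methyltransferase, was called, at -0.60 ± 0.17, and it was lost without blue light replicate 1 or ABA replicate 2. For none of these 20 genes was a difference from the WT response called.

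Of 67 plastid-encoded probe sets tested, 3 rose (rps16, petN and rpl14) and 3 fell (psbA, psbT and psaJ), with a median of -0.28. Over all probe sets, rises made up 9.93% and falls 13.4%. The count was 16 when only the double mutant arrays were fitted, and 3 without either ABA array. psbA, which encodes the D1 protein of photosystem II, read 1476 and 1172 in blue light and 274.4 and 297.4 with ABA, a log2 change of -2.20 ± 0.34 (adjusted p = 1.59e-04). In WT it read 857.9 and 1367 and then 947.3 and 1140.3, with overlap, and the difference of the responses was -2.14 ± 0.47 (adjusted p = 0.0125). psbA also fell in the COP1 single mutant, from 631.6 and 1600.3 to 301 and 430.7, by -1.48 ± 0.34 (limma adjusted p = 0.007). In atmyc2 it changed by -0.11 ± 0.34 and was not called. By complex, the medians in the double mutant were -0.38 for 15 photosystem II, -0.59 for 9 NDH complex and 0.46 for 14 ribosomal protein probe sets, beside -0.06, -0.14 and 1.29 in WT. WT had 16 rises and 4 falls among the 67, beside rises in 19.3% and falls in 15.6% of all probe sets. Among the 67, psbA was the only probe set whose difference from WT was called.

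The mitochondrial transcripts responded otherwise than in WT. Of 19 tested probe sets, 1 rose in the double mutant (matR) and 2 fell (a nad1 and a nad5 probe set), with a median of -0.52, whereas 12 rose and none fell in WT, with a median of 1.55. Over all probe sets, 9.93% rose and 13.4% fell in the double mutant, and 19.3% rose and 15.6% fell in WT. The response was called below that of WT for 10 of 19 (beside 5.39% of all probe sets), with a median difference of -1.98. All 19 differences were below 0 under every alternative, but the number called ran from 2, without WT ABA replicate 1 or without double mutant ABA replicate 2, to 15. nad9, a subunit of respiratory complex I, read 119.3 and 166.8 in blue light and 106.2 and 91.2 with ABA, against 65.7 and 71.6 and then 782.2 and 696.8 in WT. Its response differed by -3.92 ± 0.86 (adjusted p = 0.0138, and 0.0541 to 0.0574 without WT blue light replicate 1, WT ABA replicate 1 or double mutant ABA replicate 2). nad4L, of the same complex, went from 158.9 and 154.0 to 77.3 and 81.3, which was not called, against 124.2 and 65.3 and then 605.7 and 554.9 in WT (difference -3.64 ± 0.82, adjusted p = 0.0148, lost without WT ABA replicate 1 or double mutant ABA replicate 2). matR, an intron maturase read by a probe set that may bind more than 1 transcript, rose from 135.2 and 176.6 to 310.0 and 305.7 (0.99 ± 0.33, adjusted p = 0.0345, and 0.126 to 0.199 without blue light replicate 1 or either ABA array), and from 72.0 and 39.2 to 740.1 and 790.5 in WT. The 25S ribosomal RNA control was also lower on the double mutant ABA arrays (mean 1517) than on those of WT (2699.7), and its part in these results was not tested. The cop1-6 ABA arrays, whose spread the fit shares, split on nad9 into 134.6 and 1204, and with them left out of the fit 11 of the 19 were called in the double mutant, 9 with only the double mutant arrays fitted, but 1 without blue light replicate 1 or without either ABA array.

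**Figure D2:**
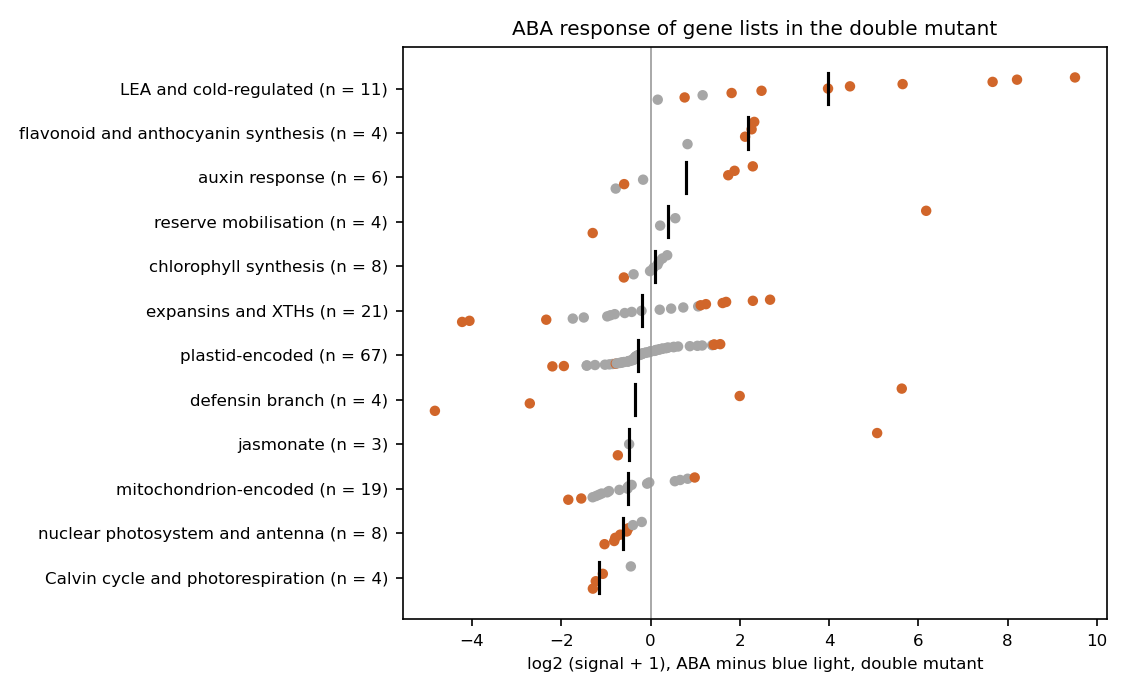
log2 change of signal + 1 with ABA in the double mutant (x axis) for each tested member of the lists with at least 3 tested members; orange points passed a limma adjusted p of 0.05, grey points did not, and black bars are list medians. The LEA and cold-regulated list has a median of 3.98 and the mitochondrion-encoded list of -0.52.

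Genes of cell wall loosening went both ways. Of 21 tested expansins and XTHs, proteins that loosen the wall and cut and rejoin its xyloglucan, 6 rose and 3 fell, with a median of -0.20. Over all probe sets, 9.93% rose and 13.4% fell. EXPA20 (AT4G38210) rose most, from 27.9 and 30.4 to 199.2 and 184.7, by 2.68 ± 0.38 (adjusted p = 7.15e-05). EXPA8 (AT2G40610) fell most, from 44.6 and 60.8 to 4.4 and 0.5, by -4.22 ± 0.61 (adjusted p = 1.30e-04, -1.73 at a pseudocount of 19.1). The root hair expansin EXPA18 (AT1G62980) went from 40.1 and 14.1 to 0.4 and 0.6, by -4.06 ± 0.90 (adjusted p = 0.00391), but at the higher pseudocount by -1.18 with an adjusted p of 0.0586. On WT arrays EXPA18 stayed between 38.1 and 62.6 in both conditions, and the difference was -4.36 ± 1.27 (adjusted p = 0.0429), or -1.40 at the higher pseudocount. Its partner in root hairs, EXPA7, read 38.4 and 7.9 and then 3.9 and 5.4 and was not called. The response differed from that of WT for 9 of the 21, 5 above it and 4 below, beside 9.27% of all probe sets. Over the alternatives 1 to 7 were above and 1 to 5 below, the fewest being without WT ABA replicate 1.

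Markers of growth and development were few. SPCH (AT5G53210) and FMA (AT3G24140), transcription factors of the stomatal lineage, both fell: SPCH from 22.0 and 19.9 to 0.9 and 0.8 (-3.57 ± 0.44, adjusted p = 1.62e-05, but -1.0 at a pseudocount of 19.1) and FMA from 59.7 and 59.4 to 20.1 and 14.5 (-1.74 ± 0.36, adjusted p = 0.00159). GH3.3 (AT2G23170), which conjugates auxin to amino acids, rose from 154.8 and 102.1 to 573.3 and 669.3, by 2.29 ± 0.32 (adjusted p = 5.87e-05). Of the other auxin response genes IAA20 and IAA29 rose and IAA18 fell among 6 tested, beside rises in 9.93% and falls in 13.4% of all probe sets. All double mutant arrays of IAA20 and IAA29 lay under the dim level, and at a pseudocount of 19.1 their changes were 0.45 and 0.31 and not called (adjusted p = 0.0907 and 0.225). Each of these 3 calls was lost in at least 3 of the 4 fits that left out 1 double mutant array. PRL (AT4G02060), a subunit of the helicase that licenses DNA replication, rose from 52.7 and 50.5 to 95.4 and 80.3, by 0.75 ± 0.20 (adjusted p = 0.0117), a call lost without blue light replicate 2 or ABA replicate 1. The single tested genes of other lists were not called: UGT71B6 (an ABA glucosyltransferase), HVA22C (an ABA-inducible family) and SAG101 (salicylate defence) changed by 1.78 ± 0.88 (0.51 at the higher pseudocount), 0.25 ± 0.27 and -0.17 ± 0.40. Hsp70-2 changed by 0.26 ± 0.24.

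Against WT, the ABA response of the double mutant was higher for 628 probe sets (3.88%) and lower for 873 (5.39%), or 9.27% either way, and the median difference over all tested was -0.15, or -0.03 after quantile normalization. The count depended on the WT arrays as much as on those of the double mutant: it was 432 without WT ABA replicate 1, 461 without double mutant ABA replicate 2, 485 and 2442 without WT blue light replicate 1 and 2, 497 without WT ABA replicate 2, 687 without double mutant ABA replicate 1, and 851 without double mutant blue light replicate 2. Across the 16196 probe sets the responses of double mutant and WT had a Pearson r of 0.639, given as a description over probe sets of the same libraries. The same figure was 0.724 with atmyc2 and 0.841 with cop1-6.

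AMY1 was reversed between the genotypes. Against its fall in the double mutant stood 17.3 and 11.5 in WT blue light and 158.9 and 117.5 with ABA, a rise of 3.19 ± 0.37 (adjusted p = 7.05e-06), and the difference of the responses was -4.48 ± 0.53 (adjusted p = 4.46e-04). Already without ABA the double mutant arrays were far above those of WT and atmyc2 (13.1 and 26.7), and cop1-6 read 578.6 and 413.8. JRG21 (AT3G55970), a jasmonate-regulated gene, followed the same order: 124.7 and 360.7 and then 305.7 and 230.9 in the double mutant, with overlap, and 40.1 and 18.7 and then 926.2 and 911.5 in WT (difference -4.69 ± 1.38, adjusted p = 0.0477). The JRG21 call was lost in 12 alternatives. EXLA1 (AT3G45970), expansin-like, read 524.9 and 973.5 and then 809.4 and 840.0 in the double mutant, again overlapping, but 128.5 and 184.7 and then 938.4 and 961.0 in WT (difference -2.41 ± 0.37, adjusted p = 0.0018). XTH18 (AT4G30280), a xyloglucan-modifying enzyme, differed by -2.88 ± 0.84 (adjusted p = 0.0449), with 9 alternatives in which the call was lost. Thus in AMY1, JRG21 and EXLA1 all double mutant blue light arrays lay above all WT blue light arrays, a difference in level that was not tested here. The cop1-6 blue light arrays lay above those of WT too, at 497.0 and 796.3 for JRG21 and 1324 and 866.5 for EXLA1. In cop1-6 the ABA changes of JRG21 and EXLA1 were 0.54 ± 0.98 and 0.23 ± 0.26, and neither was called.

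Other genes responded above WT. GSTU20 (AT1G78370), a glutathione transferase, read 233.5 and 251.1 and then 550.7 and 498.1 in the double mutant, which was not called, and 526.1 and 634.5 and then 157.3 and 136.9 in WT. Its responses differed by 3.08 ± 0.80 (adjusted p = 0.0269, and between 0.0609 and 0.0845 without 1 of 6 arrays). TUB1 (AT1G75780), a beta-tubulin, rose in the double mutant from 36.9 and 25.3 to 95.6 and 92.1 (1.59 ± 0.39, adjusted p = 0.00694), whereas WT went from 109.5 and 155.5 to 79.6 and 64.7, which was not called, a difference of 2.44 ± 0.55 (adjusted p = 0.0137, lost without WT ABA replicate 2 or double mutant blue light replicate 2). The double mutant thus started below WT in blue light and ended above it with ABA. SAH7 (AT4G08685) rose from 402.0 and 137.0 to 577.7 and 528.4 and fell in WT from 900.7 and 757.2 to 359.9 and 377.0 (difference 2.39 ± 0.45, adjusted p = 0.00594). ATLP-1 (AT1G18250), thaumatin-like, overlapped between conditions in the double mutant (71.2 and 35.3, then 57.2 and 46.2) and fell in WT from 208.2 and 151.8 to 37.3 and 31.5 (difference 2.38 ± 0.50, adjusted p = 0.00894). ATPMEPCRD (AT2G43050), a pectin methylesterase, fell in the double mutant from 23.8 and 10.9 to 9.3 and 3.7 (-1.30 ± 0.45, adjusted p = 0.0435, -0.50 at a pseudocount of 19.1), against 160.0 and 140.4 and then 9.5 and 15.4 in WT (difference 2.22 ± 0.63, adjusted p = 0.0376, a call lost in 8 alternatives). In blue light the WT arrays of SAH7, ATLP-1 and ATPMEPCRD all lay above those of the double mutant. BCAT4 (AT3G19710), the aminotransferase that starts methionine-derived glucosinolate synthesis, fell in both, from 685.3 and 428.8 to 341.8 and 284.4 in the double mutant and from 940.2 and 868.6 to 150.1 and 128.3 in WT. The fall was smaller in the double mutant by 1.90 ± 0.34 (adjusted p = 0.00422), and its own call (-0.80 ± 0.24) was lost without blue light replicate 1 or ABA replicate 2.

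**Figure D3:**
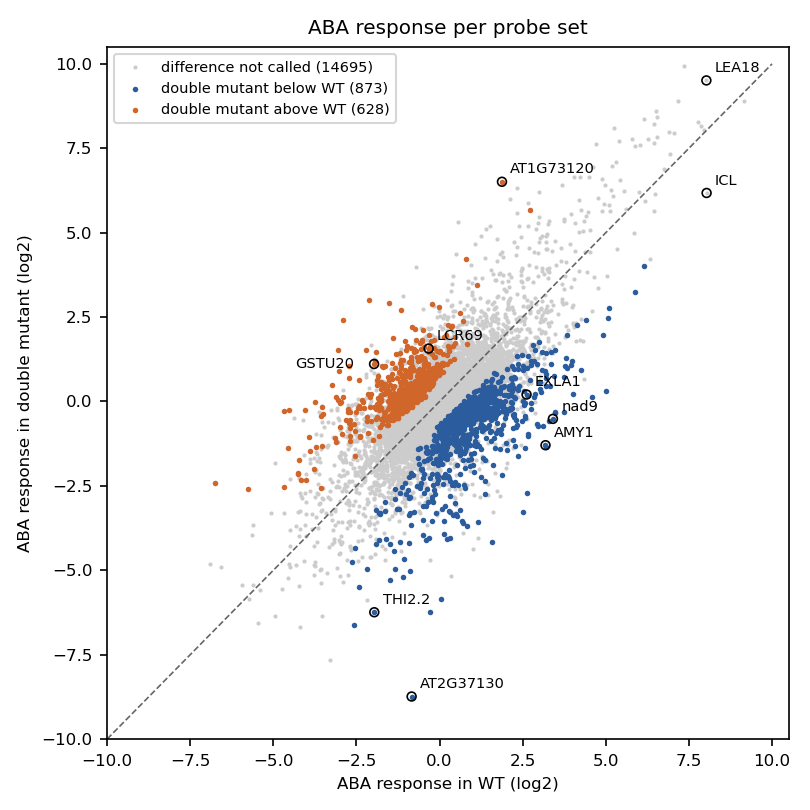
log2 ABA response of each of 16196 probe sets in WT (x axis) and in the double mutant (y axis); orange points were called above WT (628), blue points below WT (873), grey points not called, and the dashed line marks equal responses. LEA18 and ICL lie at the upper right without a called difference, and AMY1 and nad9 lie to the right below 0.

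Among genes with a symbol, 10 were called in opposite directions in the 2 genotypes with the difference called as well, a set picked out after the values were seen. SAH7, AUR2 (an Aurora kinase of cell division), EXLB1 (expansin-like), LUL4, SAPX (stromal ascorbate peroxidase) and COS1 rose in the double mutant and fell in WT. AMY1, TRM26, BGLU16 and SKP2A (an F-box protein) fell in the double mutant and rose in WT. AUR2 went from 20 and 19.4 to 34.1 and 46.4 in the double mutant and from 71.5 and 58.1 to 23.0 and 27.2 in WT, a difference of 2.31 ± 0.40 (adjusted p = 0.00375). The differences of the other 9 lay between -4.48 and 2.39.

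Against atmyc2, which shares the AtMYC2 mutation and has normal COP1, 44 probe sets responded more (0.272%) and 71 less (0.438%), or 0.71% either way. Leaving out atmyc2 ABA replicate 1 left 1 call, atmyc2 ABA replicate 2 left 4, double mutant ABA replicate 2 left 7, and the total reached 639 when the cop1-6 ABA arrays were kept out of the fit. AMY1 had a difference of -4.19 ± 0.53 (adjusted p = 0.00394), since in atmyc2 it rose to 140.5 and 151.2 with ABA. THI2.2 fell in atmyc2 from 177.2 and 185.4 to 40.2 and 32.5 and so differed by -3.95 ± 0.55 (adjusted p = 0.00576, -1.47 at a pseudocount of 19.1). SBT4.12 fell there from 138.8 and 99.5 to 53.9 and 32.1 and differed by -3.72 ± 0.58 (adjusted p = 0.0132, -1.43). EXLA1 and matR, with differences of -2.23 ± 0.37 and -2.36 ± 0.46, lost the call when any 1 of the 4 ABA arrays was left out. In THI2.2 and SBT4.12 both genotypes fell, and the double mutant ABA arrays went to 3.3 or less. THI2.2 and SBT4.12 fell in cop1-6 too, with log2 changes of -3.40 ± 0.39 and -2.61 ± 0.41 (limma adjusted p = 2.03e-05 and 4.17e-04). The calls of THI2.2, SBT4.12 and LCR69 were lost without atmyc2 ABA replicate 1 (adjusted p = 0.054, 0.0812 and 0.054), and that of SBT4.12 also without double mutant ABA replicate 2 (0.0587).

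On the other side, LCR69 (AT2G02100), a low-molecular-weight cysteine-rich peptide of the defensin family, rose in the double mutant from 706.6 and 873.4 to 2323 and 2338 (1.57 ± 0.16, adjusted p = 2.76e-06). In atmyc2 it read 1943 and 1844 and then 1666 and 1835, and in WT 2832 and 2104 and then 1854 and 2040. Its response was 1.68 ± 0.23 above that of atmyc2 (adjusted p = 0.00495) and 1.90 ± 0.23 above that of WT (adjusted p = 4.46e-04). The double mutant arrays of LCR69 lay below those of WT and atmyc2 in blue light, as those of cop1-6 did (594.6 and 791.2), and above those of WT and atmyc2 with ABA. LCR69 rose in cop1-6 as well, to 2259 and 2166 with ABA, by 1.69 ± 0.16 (limma adjusted p = 2.38e-06). FBL17 (AT3G54650), an F-box protein of the cell cycle, rose from 70.5 and 79.8 to 169.8 and 157.0 and read 132.1 and 136.0 and then 134.4 and 141.7 in atmyc2 (difference 1.07 ± 0.24, adjusted p = 0.0442). ZW9 (AT1G58270) rose from 207.3 and 160.2 to 869.8 and 1047 and differed by 1.84 ± 0.40 (adjusted p = 0.041). EXPA15 (AT2G03090), an expansin, read 42.6 and 26.1 and then 26.3 and 31.7, with overlap, while it fell in atmyc2 from 76.8 and 89.5 to 22.9 and 22.0 (difference 1.64 ± 0.34, adjusted p = 0.0348). The calls of FBL17, ZW9 and EXPA15 were lost in 11, 9 and 9 alternatives. FBL17 and ZW9 rose in cop1-6 too, by 0.85 ± 0.17 and 2.04 ± 0.28 (limma adjusted p = 0.00246 and 1.31e-04). EXPA15 was not called in cop1-6.

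Against cop1-6, which shares the cop1-6 allele and has normal AtMYC2, 0 of 16196 differences passed limma's adjusted p of 0.05, and 880 had an unadjusted p under 0.05. With no pseudocount 3 passed, and with one of 19.1 there was 1. Leaving out cop1-6 ABA replicate 1 gave 590, and leaving out cop1-6 ABA replicate 2 gave 0, so the comparison turned on which of these unlike arrays stood for cop1-6. LEA18 read 1928 and 194.6 on them, PAP85 2034 and 458.2, and AMY1 211.7 and 477.5. The lack of calls does not show that the genotypes responded alike: for AMY1 the difference was -0.68 ± 0.53, for psbA -0.72 ± 0.47 and for THI2.2 -2.84 ± 0.55 (adjusted p = 0.176).

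**Figure D4:**
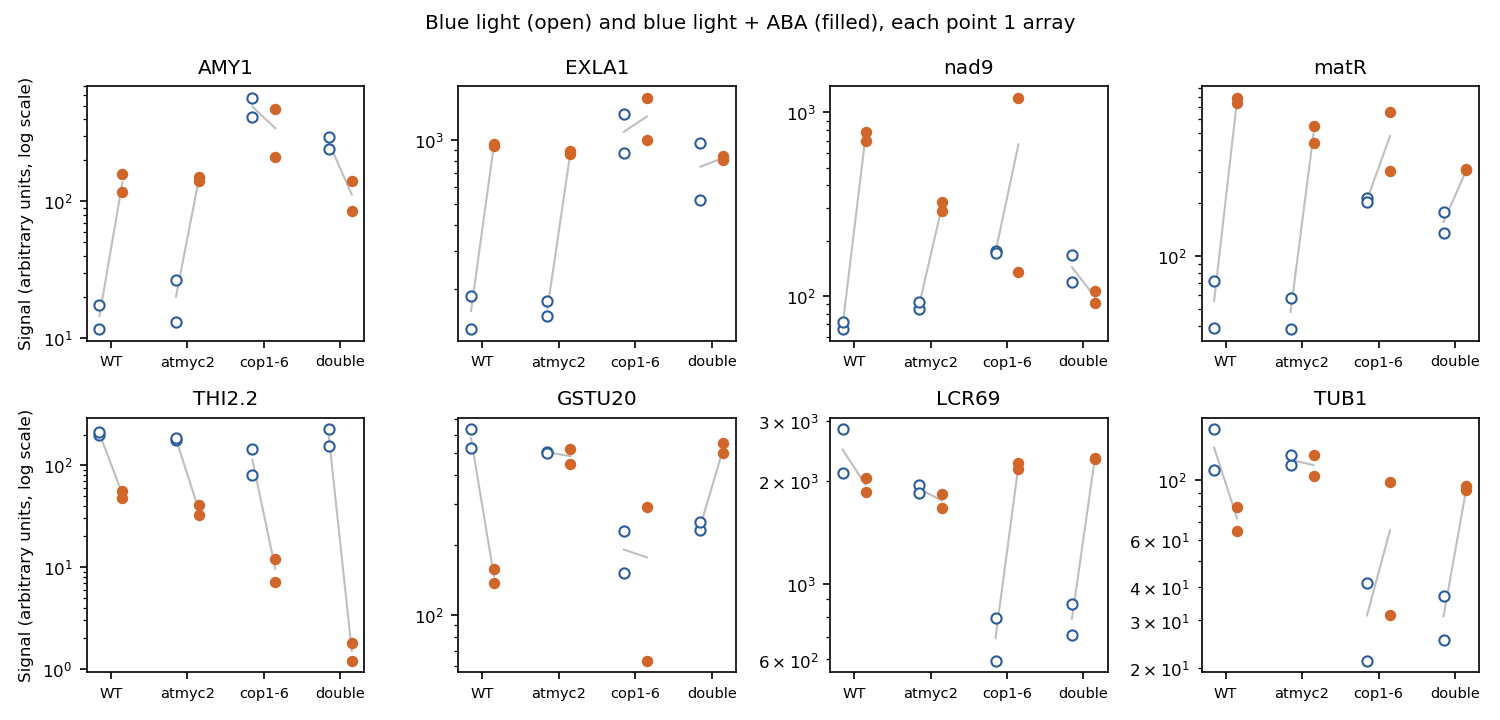
Signal (y axis, arbitrary units, log scale) on each array for 8 genes in 4 genotypes (x axis); open circles are blue light, filled circles blue light with ABA, and grey lines join group means. In AMY1 the WT arrays rise from 17.3 and 11.5 to 158.9 and 117.5 while those of the double mutant fall from 242.5 and 297.1 to 84.4 and 140.1, and in nad9 the 2 cop1-6 ABA arrays read 134.6 and 1204.

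Some genes known here only by their locus code changed as much as those with a symbol, and they were picked out after the values were seen. AT3G02480 read 6.4 and 8.5 in blue light and 4199 and 3828 with ABA, a log2 change of 8.90 ± 1.06 (adjusted p = 3.52e-05, 7.25 at a pseudocount of 19.1). AT3G15670 went from 1.3 and 0.2 to 1371 and 1945, by 9.94 ± 0.94 (adjusted p = 2.31e-06, 6.38). WT arrays of both genes rose as well, to at least 398.9, with no difference called. AT2G37130 was the reverse case: it went from 989.0 and 800.9 to 0.5 and 1.9, by -8.74 ± 0.96 (adjusted p = 1.89e-05, -5.49), whereas WT stayed bright at 1466 and 1076 and then 602.8 and 813.8. Its response differed by -7.90 ± 1.36 from WT (adjusted p = 0.00531) and by -7.80 from atmyc2 (adjusted p = 0.0266), and the cop1-6 ABA arrays were split at 13.7 and 431.5. AT1G73120 went from 9.5 and 19.9 to 1319 and 1377, by 6.51 ± 0.44 (adjusted p = 1.08e-07), and exceeded the WT response by 4.63 ± 0.63 (adjusted p = 0.0015). WT arrays of AT1G73120 reached a like level (985.7 and 820.6) but started at 309.2 and 192.8. The low start was shared by cop1-6, where AT1G73120 went from 6.3 and 12.3 to 1463 and 394.8, by 6.27 ± 0.44. AT2G43590 rose from 62.3 and 8.8 to 179.7 and 218.7 while it fell in WT from 102.4 and 80.4 to 17.4 and 23.1 (difference 5.12 ± 1.02, adjusted p = 0.00849). AT3G44970 fell from 137.5 and 81.5 to 18.1 and 5.5 and rose in WT from 14.1 and 6.6 to 62.0 and 57.3 (difference -5.76 ± 1.01, adjusted p = 0.00384).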

How the data were processed

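Each of the 24 arrays holds 1 library of whole-seedling RNA (Trizol extraction, 5 µg of total RNA, biotin-labelled cRNA), per the labels' protocols. The authors deposited 1 signal intensity per probe set and array on a linear scale, per the submitters' processing notes from GCOS 1.4. The 2% trimmed mean of each array was 100.0, so the intensity values had been scaled before deposit.

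Control (AFFX) probe sets were left out, and log2(signal + 1) was fitted with limma 3.58.1 in R 4.3.3 with 1 coefficient per group over all 24 arrays, with trend and robust moderation. Tested were 16196 of 22746 probe sets with a mean above the dim level of 19.1 in at least 1 of 12 groups. P-values were Benjamini-Hochberg adjusted over all of them, with a threshold of 0.05, and the fit was checked on simulated data. Differences between genotypes were tested as interaction contrasts. Alternatives changed the pseudocount, dim filter, normalization, moderation, replicate block and arrays fitted. The 2 arrays per group limit the precision. Changes of dim probe sets depend on the pseudocount, and values at a pseudocount of 19.1 stand beside many of them.

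Gene names came from the platform annotation and the TAIR10.1 gene table: 13513 probe sets had 1 gene, 503 several and 8794 none, and 1580 had a symbol. Named genes had 1 gene and a symbol: by the log2 change at a pseudocount of 19.1, the 12 largest rises and 12 largest falls that were called with arrays not overlapping, the 5 highest and 5 lowest called differences from each genotype, and from each list the largest and smallest change and every called member where 4 or fewer were called. Further members, gene families, genes called in opposite directions and locus codes were picked out after their values were seen. Members and lists were chosen with earlier results of these data known. THO1 and AT2G43570, matched only through a shared name, were left out of the lists. Promoter and protein sequences were not used here. The labels give the replicate numbers no shared source, and they were not taken to pair the samples: deviations of same-numbered arrays correlated at -0.10 between the double mutant groups and at up to 0.19 between a double mutant group and another genotype's (blue light atmyc2).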

Additional observations from a re-analysis of the deposited data

Results flagged for a closer look

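The following differences passed the test of the difference between the ABA responses itself, as limma interaction contrasts with an adjusted p under 0.05, and their log2 sizes are given as double mutant minus the other genotype. Below WT were JRG21 at -4.69, AMY1 at -4.48, nad9 at -3.92, nad4L at -3.64 and XTH18 at -2.88. Above WT were GSTU20 at 3.08, TUB1 at 2.44, SAH7 at 2.39, ATLP-1 at 2.38 and ATPMEPCRD at 2.22. Below atmyc2 were AMY1 at -4.19, THI2.2 at -3.95, SBT4.12 at -3.72, matR at -2.36 and EXLA1 at -2.23. Above atmyc2 were ZW9 at 1.84, LCR69 at 1.68, EXPA15 at 1.64 and FBL17 at 1.07.

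A signal also stood out in control probe sets that no comparison used. The 25S ribosomal RNA probe set averaged 1517 on the double mutant ABA arrays and 74.3 on its blue light arrays, and the poly-A spike-in probe sets averaged 103.2 and 8.19.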

How the results depend on the processing

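The 73 results for single genes were all called in the main fit, so a call could be lost but not gained. Some genes had more than 1 result, and the 1021 recomputed values held no reversal of direction. Of these values 864 kept their call and 157 lost it, and 39 of the 73 results kept it in every alternative run. The double mutant's count of 3776 called probe sets lay between 1999 and 3142 with 1 of its 4 arrays left out, the remaining array being assumed to vary like the other groups. The 1501 differences from WT became 977 with only the arrays compared and 432 to 2442 with 1 array left out. The 115 differences from atmyc2 became 204 at a pseudocount of 19.1, 229 after quantile normalization, 42 with moderation without trend and robust fitting, 415 with only the arrays compared, 639 without the cop1-6 ABA arrays in the fit, and 1 to 160 with 1 array left out. The 0 differences from cop1-6 became 3 with no pseudocount, 1 at a pseudocount of 19.1 and 0 to 590 with 1 array left out. The causes of these shifts were not tested.

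With the replicate number as a block, the counts were 3768 for the double mutant and, for the differences, 1508 from WT, 102 from atmyc2 and 0 from cop1-6. The replicate numbers share no more than a number, and the block moved no count by over 1.5 times, though JRG21, FBL17 and ZW9 lost their called differences with it. The recounts of list members differing from WT were chosen after seeing the data. Quantile normalization moved the share of higher calls from 42.6% to 44.3% in the double mutant, from 41.8% to 48.1% for the difference from WT and from 38.3% to 45.4% for that from atmyc2. With 2 arrays per group and signals near background for many genes without ABA, fold changes of dim genes are uncertain.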

Other observations

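Among gene families that the lists left out, picked here after the values were seen, 4 of 8 tested autophagy (ATG) genes fell in the double mutant and none rose, beside falls in 13.4% of all probe sets. The 8 had a median of -0.45 beside -0.03 over all probe sets and 0.20 in WT. ATG8F (AT4G16520), a ubiquitin-like protein of the autophagosome membrane, read 838.1 and 675.3 in blue light and 394.2 and 456.2 with ABA, a log2 change of -0.83 ± 0.16 (limma adjusted p = 0.0013). In WT it read 481.9 and 502.2 and then 618.9 and 591.9, and the responses differed by -1.12 ± 0.23 (adjusted p = 0.00828). ATG8E (AT2G45170), of the same family, went from 344.6 and 331.4 to 150.4 and 145.5, and differed from WT by -1.29 ± 0.38 (adjusted p = 0.0405). The double mutant arrays of both genes were apart between conditions, whereas those of WT ATG8E overlapped. ATG8F also fell in the COP1 single mutant, from 843.1 and 696.6 to 423.7 and 512, by -0.72 ± 0.16 (limma adjusted p = 0.00684). In that mutant ATG8E changed by -0.32 ± 0.27 and was not called.

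Beta-glucosidases, which release hormones and defence compounds from sugar conjugates, numbered 11 tested, of which 5 rose, beside 9.93% of all probe sets, and 1 fell. BGLU25 (AT3G03640) went from 92.3 and 75.8 to 664.0 and 666.4, by 2.98 ± 0.44 (adjusted p = 1.30e-04). BGLU33 (AT2G32860) rose by 1.62 ± 0.39 and differed from WT by 2.09 ± 0.56 (adjusted p = 0.0263). Of 17 serine carboxypeptidase-like genes 4 rose and 3 fell, and scpl35 (AT5G08260) went from 191.9 and 208.1 to 928.9 and 944.0, by 2.22 ± 0.29 (adjusted p = 2.91e-05), against 586.3 and 386.2 and then 631.7 and 614.1 in WT. Of 15 genes with CYP symbols, 12 of them cytochrome P450s of the CYP71B subfamily, 5 fell and none rose, and these 5 were all CYP71B genes. CYP71B23 (AT3G26210), with CYP71B22 and CYP71B24 among them, went from 148.6 and 136.5 to 36.2 and 29.3, by -2.09 ± 0.40 (adjusted p = 8.76e-04). Probe sets of so similar a subfamily may share transcripts. Of 36 glycosyltransferases with UGT symbols 6 rose and 5 fell. Rises made up 9.93% and falls 13.4% of all probe sets.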
